A study of Medicago ruthenica with 9 samples.

Results

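Ferritins are iron storage proteins, and 9 ferritin unigenes assembled from leaves of the forage legume Medicago ruthenica were followed here through drought and rewatering. Among them, FTH1 and FTL were closest to human ferritins, and the organism they came from was not tested. A unigene is the longest transcript of a cluster in a de novo assembly. Members were the unigenes whose protein annotation or closest SwissProt entry named a ferritin and not a ferritin-like protein, with a level of at least 1 TPM (a relative abundance scaled for transcript length and library total) in at least 3 libraries. Of 52457 unigenes in the table, 9 matched the name and all 9 passed the minimum level, so none was left outside it. The lowest one inside, TRINITY_DN10939_c1_g1, reached the minimum in 5 of the 9 libraries. The members were thus chosen by name and selected on these TPM values over all libraries, without regard to treatment group. No unigene was annotated as ferritin-like.

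The 9 libraries came from leaves of seedlings grown 8 to a pot, in 3 groups of 3 biological replicates. The seedlings were 4 weeks old when divided into the groups, so they were older at harvest. CK plants received water every 3 days, with relative soil moisture above 80%. DS plants were kept dry for 15 days, by which time soil moisture stood at 20%. RW plants passed through the same 15 dry days, were then soaked, and gave leaves 2 days afterwards, so RW was sampled later than CK and DS. All groups came from 1 cultivar and were fed no nutrients. Whether the replicates of a group came from different pots is not given in the sources used here, and the p-values cover no more than library-to-library spread, which may be technical.

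Plant ferritins are made with a transit peptide and act in plastids, where a hollow shell of many subunits oxidises ferrous iron and holds it as a ferric mineral. Stored iron supplies ferredoxins, cytochromes and other iron proteins of the chloroplast. Free ferrous iron reacts with hydrogen peroxide to form hydroxyl radicals, and ferritin is known for keeping leaf iron out of that reaction. In Arabidopsis, the ferritin gene FER1 is a marker of iron supply, with a transcript that responds to iron excess and to hydrogen peroxide.

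TPM summed to between 994748 and 996266 per library, and sequencing depth is not kept by this unit, so no counting interval is given. The library that differed most in content was RW replicate 2, where 3618 unigenes reached 5 TPM while remaining under 0.5 TPM in the other 8, against 13 to 166 such unigenes in any other library. Leaf mesophyll markers, 33 rubisco small subunit and chlorophyll a/b binding unigenes, summed to 69225 to 93395 TPM in CK, 33126 to 91596 in DS and 59338 to 82015 in RW. The 1 leghemoglobin unigene, a marker of root nodules, stayed at or below 2.83 TPM in every library.

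Of the 9 members, 7 were closest to a plant ferritin in SwissProt and 2 to a human one. The entry for PFE2 (TRINITY_DN22246_c0_g1, 2315 bp) was ferritin-2 of cowpea. TRINITY_DN23595_c0_g1 (1471 bp) and TRINITY_DN23595_c0_g3 (428 bp) shared ferritin-2 of soybean as their closest entry. TRINITY_DN22294_c0_g2 (764 bp) and TRINITY_DN23595_c0_g2 (316 bp) shared ferritin-1 of pea. TRINITY_DN22294_c0_g3 (493 bp) was closest to ferritin-3 of cowpea, and TRINITY_DN10939_c1_g1 (230 bp) to ferritin-3 of soybean. The deposited gene ontology terms gave a chloroplast location to these 7 and a mitochondrial one to 5 of them. Ferric iron binding was annotated for all 9 members and ferroxidase activity, the oxidation of ferrous iron, for 8. A ferritin domain in Pfam was listed for 7 of the 9, but not for TRINITY_DN22294_c0_g3 or TRINITY_DN23595_c0_g2. The protein annotation of TRINITY_DN23595_c0_g3 was a hypothetical protein of Trifolium subterraneum. A response to abscisic acid was annotated for PFE2 alone, whereas a response to iron ions was annotated for the other 6 plant-matched members.

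The quantitative PCR primers listed by the study include a pair for PFE2, which is shown here. The unigene stands for 18 assembled transcripts. Which of them, or of the other ferritins, the pair amplifies was not tested. Both primers are 20 bases long and are written 5′ to 3′ in lower case.
forward primer, PFE2: ctctcttcaattccgaaaac
reverse primer, PFE2: ggcagcttcagattcaacat

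The comparison of DS with CK asked how ferritin transcripts differed after the dry period. PFE2, the most abundant ferritin in CK, fell. Its level was 867, 423 and 450.4 TPM in CK and 154, 209 and 80.5 TPM in DS. Each DS library lay below each CK library, and the DS mean was 25.5% of the CK mean (148 ± 64.4 against 580.1 ± 248.4 TPM, mean ± SD, n = 3 libraries per group). The log2 fold change was −1.99 (SE 0.38, limma adjusted p = 0.0178). In bulk leaf RNA, fewer cells of a type and less RNA per cell cannot be told apart. A unigene was called where its log2 fold change exceeded 1 in either direction at an adjusted p below 0.05, and 4.96% of all 44538 tested unigenes were called in DS vs. CK. PFE2 was the 1 ferritin called lower, against 2.57% of all tested unigenes, and 0 were called higher by limma, against 2.39%. At an unadjusted p below 0.05 with the same fold, 1 ferritin, FTH1, was higher and 1, PFE2, lower, against 5.34% and 8.94% of all tested unigenes. Groups did not overlap, with DS below CK, for PFE2 alone and for 18.1% of all tested unigenes. PFE2 was also called in each of the 21 alternative analyses, with limma adjusted p between 0.00691 and 0.0481. The runs with unadjusted p and with no minimum fold only loosened the rule, so no call could be lost in them.

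The other plant-matched ferritins did not pass the test in DS vs. CK, and their DS and CK libraries overlapped. TRINITY_DN23595_c0_g1 was at 76.0, 33.3 and 155 TPM in CK and 21.3, 77.5 and 20.9 TPM in DS (log2 fold change −1.14, 95% interval −2.56 to 0.27). TRINITY_DN22294_c0_g3 was at 14.7, 28.9 and 188 TPM in CK and 18.2, 64.3 and 13.1 TPM in DS (−0.78, interval −2.71 to 1.16), and without CK replicate 3 the sign turned (0.26). CK replicate 3 was the highest CK library for both of these and for TRINITY_DN23595_c0_g3, whereas PFE2 was highest in CK replicate 1. TRINITY_DN23595_c0_g3 was at 12.6, 16.2 and 43.2 TPM in CK and 8.32, 23.8 and 3.98 TPM in DS (−1.06, interval −2.60 to 0.49).

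The pair closest to ferritin-1 of pea had the opposite sign. TRINITY_DN22294_c0_g2 was at 16.1, 6.27 and 10.0 TPM in CK and 16.1, 53.5 and 7.08 TPM in DS (0.82, interval −0.61 to 2.24). TRINITY_DN23595_c0_g2 was at 14.2, 4.36 and 12.1 TPM in CK and 13.6, 48.9 and 5.06 TPM in DS (0.68, interval −0.86 to 2.23). DS replicate 2 alone lay above the CK range in both. The same library was the highest DS library for each of the 6 abundant plant-matched ferritins, PFE2 included. Without it, the log2 fold change of TRINITY_DN23595_c0_g2 in DS vs. CK was −0.12.

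**Figure D1:**
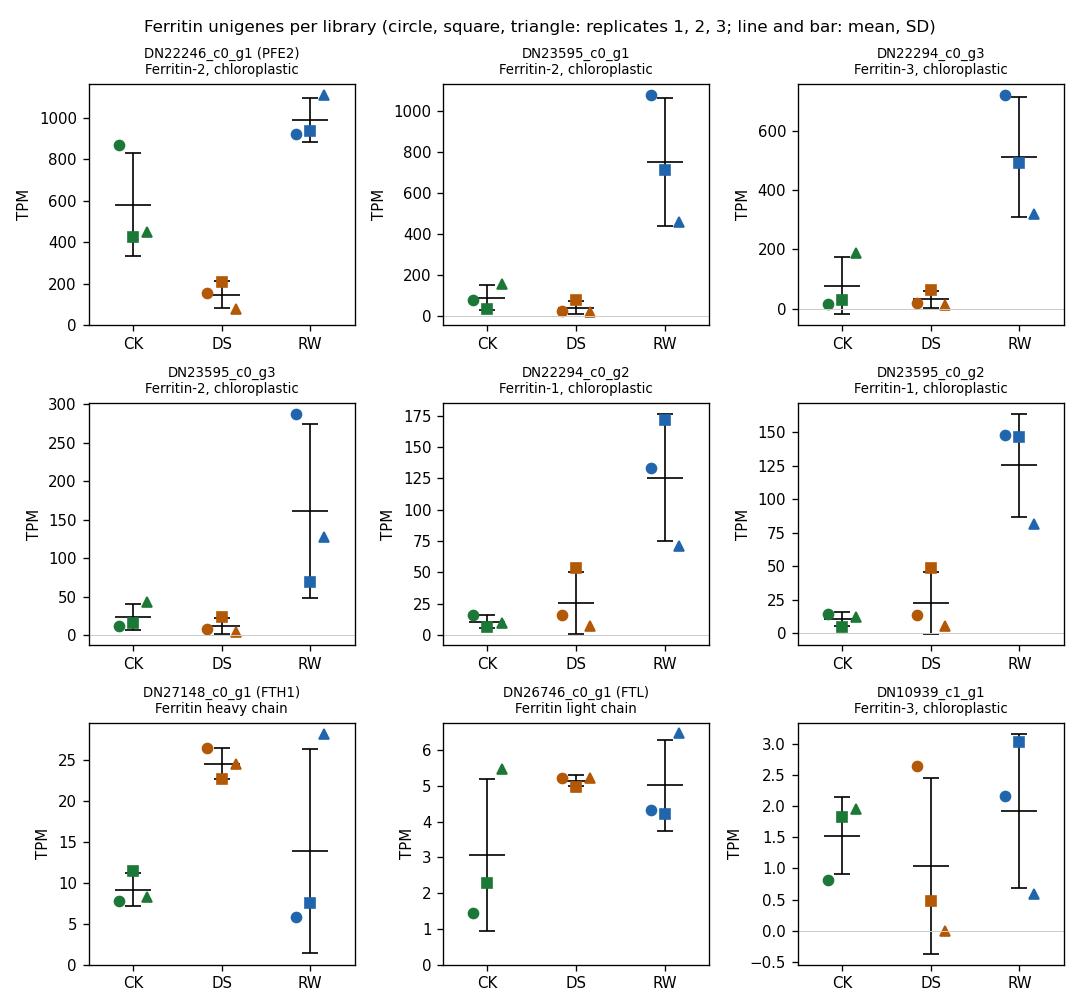
TPM (linear vertical axis, scaled for each unigene) of the 9 ferritin unigenes in the CK, DS and RW libraries, with circles, squares and triangles for replicates 1, 2 and 3 and a black line and bar for the mean and SD of 3 libraries. In 6 of the 9 panels each RW library lies above each CK and each DS library, while FTH1, FTL and TRINITY_DN10939_c1_g1 overlap between RW and CK.

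After rewatering, 5 ferritins were higher in RW than in DS by the test, and the 6 abundant plant-matched ones were above the DS range in all 3 RW libraries. PFE2 reached 922, 935 and 1111 TPM in RW, 6.69 times the DS mean (DS vs. RW log2 fold change −2.83, SE 0.38, limma adjusted p = 0.00328). TRINITY_DN23595_c0_g1 reached 1077, 709 and 457 TPM, 18.7 times the DS mean (−4.39, SE 0.63, adjusted p = 0.00497). That difference ranked 15 of 44538 among the most negative in DS vs. RW. TRINITY_DN22294_c0_g3 reached 721, 493 and 319 TPM, 16.0 times the DS mean (−4.22, SE 0.86, adjusted p = 0.0265). TRINITY_DN23595_c0_g3 reached 287, 68.6 and 128 TPM, 13.4 times the DS mean (−3.71, SE 0.69, adjusted p = 0.0180). Without DS replicate 2, the highest DS library, the ratios of the last 3 were 35.5, 32.7 and 26.2, and without RW replicate 1 that of TRINITY_DN23595_c0_g3 was 8.16.

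The ferritin-1 pair lay close to the threshold. TRINITY_DN23595_c0_g2 was at 148, 146 and 81.0 TPM in RW (−2.89, limma adjusted p = 0.0497) and TRINITY_DN22294_c0_g2 at 133, 172 and 71.3 TPM (−2.60, limma adjusted p = 0.0543), so the first was called and the second was not. Their intervals overlapped almost wholly (−4.44 to −1.34 and −4.02 to −1.17). In DS vs. RW 5 of 9 members were called lower by limma, against 1.79% of all tested unigenes, and 0 were called higher, against 2.15% (3.94% in either direction). At an unadjusted p below 0.05 with the same fold, 6 were lower and 1, FTH1, was higher, against 7.07% and 4.95%. Groups did not overlap, with DS below RW, for 6 of 9 members and for 15.7% of all tested unigenes, and with DS above RW for 0 members and 8.01%. The median log2 fold change was −2.83 over the 9 members and −0.17 over all tested unigenes.

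PFE2 and TRINITY_DN23595_c0_g1 were called in DS vs. RW in all 21 alternative analyses. Among these, the runs with unadjusted p and with no minimum fold could not undo a call. The count of 5 dropped to 2 without DS replicate 1, DS replicate 3, RW replicate 1 or RW replicate 3 and to 3 without RW replicate 2. The log2 fold change of each of the 6 abundant plant-matched ferritins stayed at −1.96 or lower when any 1 DS or RW library was left out. Leaving out a CK library cannot change this difference. DS vs. CK and DS vs. RW share the DS libraries and are not independent of each other.

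**Figure D2:**
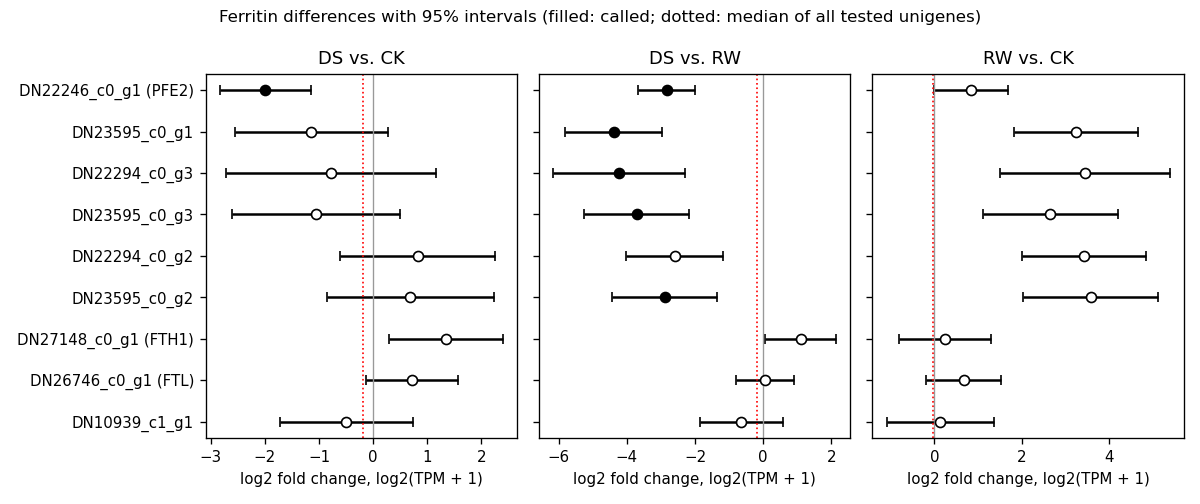
Log2 fold change of each ferritin on the log2(TPM + 1) scale (horizontal axis) with its 95% interval from limma, in 1 panel for each comparison, with filled points for called unigenes, open points for the rest and a dotted line at the median of all 44538 tested unigenes. PFE2 is filled in the first 2 panels, 4 further ferritins are filled in DS vs. RW, and no point is filled in RW vs. CK although 5 lie beyond 2.6.

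The comparison of RW with CK asked whether ferritin transcripts were back at the control level 2 days after rewatering. In either direction 0 ferritins were called by limma, and among all tested unigenes the count was 1 (0.00225%), lower in RW. The measured levels of 6 ferritins nevertheless lay above the control range in each RW library. That separation was found for 5.35% of all tested unigenes, and the opposite one for 0 members and 6.44% of unigenes. At an unadjusted p below 0.05 with the same fold, 5 ferritins were higher and 0 lower in RW, against 1.94% and 2.4% of all tested unigenes. The median log2 fold change was 2.65 over the 9 members and −0.02 over all tested unigenes.

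For PFE2 the RW mean was 1.70 times the CK mean (989.0 ± 105.7 against 580.1 ± 248.4 TPM), and the log2 fold change of 0.84 had an interval from 0.0015 to 1.68 (limma adjusted p = 0.769). The lowest RW library, at 922 TPM, was just above CK replicate 1 at 867 TPM. PFE2 therefore differed less from CK than the other abundant plant-matched ferritins did, in measured ratio, although the difference between members was not tested.

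For the ferritin-1 pair the RW means were 12.3 and 11.6 times the CK means. TRINITY_DN23595_c0_g2 averaged 125 ± 38.2 TPM in RW and 10.2 ± 5.18 TPM in CK (log2 fold change 3.57, interval 2.03 to 5.12). TRINITY_DN22294_c0_g2 averaged 125 ± 50.6 and 10.8 ± 4.97 TPM (3.42, interval 1.99 to 4.84). These were the 7th and 10th most positive of the 44538 log2 fold changes in RW vs. CK, with an adjusted p of 0.495 for both in limma. Left out in turn, single CK or RW libraries moved the 2 log2 fold changes only between 3.11 and 3.86.

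The 3 remaining abundant ferritins were 6.63 to 8.49 times as high in RW as in CK, and the high CK replicate 3 lowered these ratios. TRINITY_DN23595_c0_g1 averaged 748 ± 312 TPM in RW and 88.1 ± 61.7 TPM in CK (log2 fold change 3.24, interval 1.83 to 4.66, rank 18). TRINITY_DN22294_c0_g3 averaged 511 ± 202 and 77.1 ± 96.1 TPM (3.44, interval 1.51 to 5.38, rank 9). TRINITY_DN23595_c0_g3 averaged 161 ± 113 and 24.0 ± 16.7 TPM (2.65, SE 0.69, rank 45). Without CK replicate 3 the ratios of RW to CK means were 13.7, 23.4 and 11.2 in the same order, and without RW replicate 1 that of TRINITY_DN23595_c0_g3 was 4.09. With any 1 CK or RW library left out, the log2 fold changes ran from 2.69 to 3.78, from 2.69 to 4.48 and from 2.12 to 3.17. Their adjusted p by limma lay between 0.495 and 0.694. RW replicate 1 was the highest library for all 3, and RW replicate 2, the library that differed most in content, lay between or below the other RW libraries. Without RW replicate 2 none of the 9 members was called in RW vs. CK either.

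Summed over the 9 members, ferritin abundance was 1010 TPM at most and 528 TPM at least in CK, 160.3 to 505 TPM in DS and 2202 to 3301 TPM in RW. The means were 804 ± 249, 310.4 ± 176.6 and 2680.0 ± 563.2 TPM, so that the RW mean was 3.33 times the CK mean and 8.63 times the DS mean. The 3 groups did not overlap in this sum, which is a description and carries no test. Without PFE2, the plant-matched ferritins summed to 212 ± 173 TPM in CK, 133 ± 118 TPM in DS and 1672 ± 660.1 TPM in RW. Single libraries carried the CK and DS means, which were 113 TPM without CK replicate 3 and 65.1 TPM without DS replicate 2.

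The make-up of the sum differed too. PFE2 made 52.4% to 86.6% of the plant-matched ferritin TPM in CK, 43.8% to 65.8% in DS and 28.0% to 51.3% in RW. In RW replicate 1, TRINITY_DN23595_c0_g1 at 1077 TPM exceeded PFE2 at 922 TPM, which happened in no other library. In CK the order of mean level was PFE2, TRINITY_DN23595_c0_g1 and TRINITY_DN22294_c0_g3, and the last 2 of these did not differ beyond their spread.

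**Figure D3:**
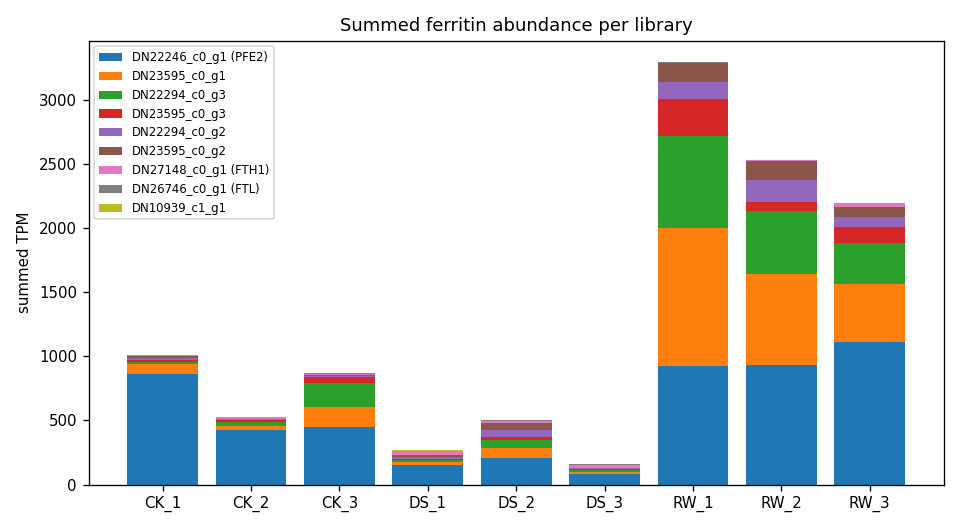
Summed TPM of the 9 ferritin unigenes in each library (vertical axis from 0), stacked by unigene from the most abundant, PFE2, upward. The RW bars reach 2202 to 3301 TPM and hold large portions from TRINITY_DN23595_c0_g1 and TRINITY_DN22294_c0_g3, while the CK bars reach 528 to 1010 TPM and the DS bars 160.3 to 505 TPM.

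Reads that fit several assembled transcripts cannot be told apart in TPM, and whether some of these unigenes are pieces or copies of 1 gene was not tested, so their separate levels are uncertain. The closest pair was TRINITY_DN22294_c0_g2 and TRINITY_DN23595_c0_g2, assembled in different clusters but both closest to ferritin-1 of pea. Their TPM ratio stayed between 0.83 and 1.44 in all 9 libraries, and their centred log2(TPM + 1) profiles differed by 0.24 (root mean square over libraries). The next closest pair, TRINITY_DN23595_c0_g1 and TRINITY_DN23595_c0_g3, differed by 0.65, with a TPM ratio from 2.05 to 10.3. When TPM was summed over unigenes with the same SwissProt description, 3 of the summed ferritin entries were called lower in DS vs. RW. The ferritin-1 entry, which merges TRINITY_DN22294_c0_g2 and TRINITY_DN23595_c0_g2, was not (log2 fold change −2.79, limma adjusted p = 0.0502).

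TRINITY_DN10939_c1_g1 stayed near the detection range. It was at 0.820, 1.82 and 1.95 TPM in CK, at 2.65 and 0.480 TPM and listed at 0 in DS, and at 2.16, 3.03 and 0.590 TPM in RW. The 3 groups overlapped, with a log2 fold change of 0.14 in RW vs. CK (interval −1.09 to 1.37).

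The members FTH1 (TRINITY_DN27148_c0_g1, 867 bp) and FTL (TRINITY_DN26746_c0_g1, 828 bp) were closest to the human ferritin heavy and light chains, the ferroxidase and mineral-nucleating subunits of animal ferritin. Their other annotation was an unknown maize protein, and neither carried a chloroplast term. FTH1 was at 7.74, 11.4 and 8.19 TPM in CK, 26.4, 22.7 and 24.5 TPM in DS and 5.84, 7.47 and 28.1 TPM in RW. Each DS library was above each CK library, as for 8.86% of all tested unigenes, and RW replicate 3 lay with the DS libraries. The log2 fold change of 1.35 in DS vs. CK was not called (limma adjusted p = 0.138). It was called without RW replicate 3, which shares the estimate of the spread (1.35, limma adjusted p = 0.0179), as was DS vs. RW (1.74, limma adjusted p = 0.0147). FTL was at 1.44, 2.29 and 5.47 TPM in CK, 5.24, 4.97 and 5.23 TPM in DS and 4.34, 4.23 and 6.49 TPM in RW, and was not called in any comparison.

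In the table, 4 further unigenes had a closest human entry together with a maize annotation, a set chosen after these values were seen. They are named RPL7A and RPL14 (ribosomal proteins), GAPDH (a glycolytic enzyme) and NUDC (a nuclear distribution protein). Together they summed to 3.40, 5.38 and 5.21 TPM in CK, 11.2, 12.5 and 10.5 TPM in DS and 4.07, 4.74 and 13.2 TPM in RW. Their sum was thus high in the same 4 libraries as FTH1, the 3 DS libraries and RW replicate 3. The organism from which these 6 transcripts came was not tested.

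**Figure D4:**
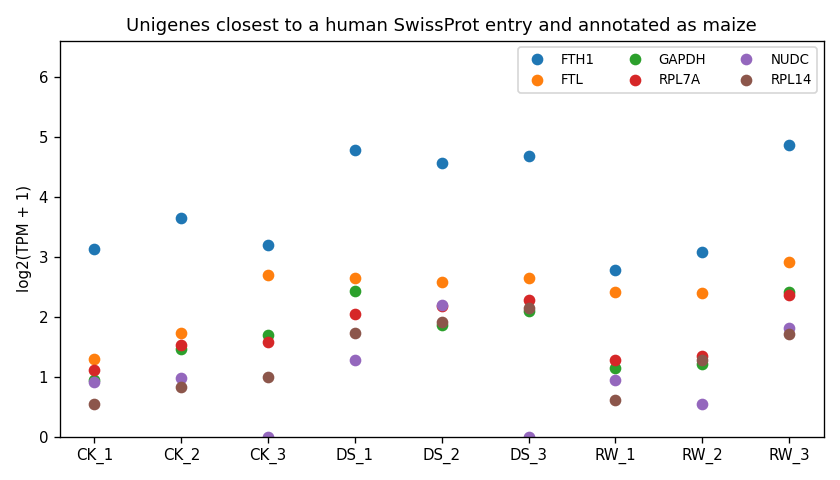
Level on the log2(TPM + 1) scale (vertical axis) in each of the 9 libraries (horizontal axis) for the 6 unigenes with a closest human SwissProt entry and a maize annotation, 1 colour per unigene. FTH1 is highest in the 3 DS libraries and RW replicate 3, at 22.7 to 28.1 TPM, and lower in the other 5, at 5.84 to 11.4 TPM.

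Other genes of iron handling were taken from lists matched as text in the annotation. Of 33 tested unigenes for iron uptake and transport, 1 rose in DS vs. CK (3.03% of the list, near the 2.39% of all tested unigenes called higher) and 3 were lower in DS than in RW (9.09%, against 1.79% of all tested unigenes). FRO6, a ferric reductase of shoots in Arabidopsis, rose from 181, 112 and 142 TPM in CK to 338, 434 and 482 TPM in DS (log2 fold change 1.53, limma adjusted p = 0.0123). The call ended without CK replicate 3 (limma adjusted p = 0.0516). The Medicago truncatula annotation of this unigene was ferric reduction oxidase 7, chloroplastic. YSL1, a transporter of iron bound to nicotianamine, was at 18.5, 7.56 and 8.89 TPM in DS and 57.0, 27.3 and 63.9 TPM in RW (limma adjusted p = 0.0190). For 2 unigenes the closest SwissProt entry was vacuolar iron transporter homolog 1. Of these, TRINITY_DN11033_c0_g1 (annotated as homolog 2 of Medicago truncatula) was at 7.94 ± 1.23 TPM in DS and 23.4 ± 4.57 TPM in RW (−1.44, limma adjusted p = 0.0145). TRINITY_DN16182_c0_g1 (annotated as homolog 1) was at 2.78 ± 1.13 and 11.7 ± 3.01 TPM (−1.76, limma adjusted p = 0.0295). The 3 lower calls numbered 0 without RW replicate 1 or RW replicate 3 and 1 without DS replicate 2 or DS replicate 3. The list's median log2 fold change was −0.04 in DS vs. RW.

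The remaining iron lists had no called member in any of the 3 comparisons by limma. They held 13 regulators of the iron deficiency response, such as BRUTUS, 22 unigenes of iron-sulfur cluster assembly, 11 ferredoxins and Rieske proteins, 18 of heme synthesis and breakdown, and 18 enzymes that remove hydrogen peroxide or superoxide. At an unadjusted p below 0.05 with the same fold, regulators numbered 1 higher in DS vs. CK, 1 lower in DS vs. RW and 2 higher in RW vs. CK, out of 13, where that rule took 5.34%, 7.07% and 1.94% of all tested unigenes. By that rule 1 unigene of the heme list was lower in DS vs. CK (8.94% of all tested unigenes) and 1 peroxide or superoxide enzyme was lower in DS vs. RW (7.07%), both out of 18, and the iron-sulfur assembly and ferredoxin lists had 0. List medians in RW vs. CK lay between −0.02 and 0.27, against 2.65 for the ferritins. Summed TPM of the ferredoxin and Rieske list, which draws on plastid iron, ran from 3122 to 4257 in CK, 4090.1 to 6025 in DS and 3010 to 4318 in RW.

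**Figure D5:**
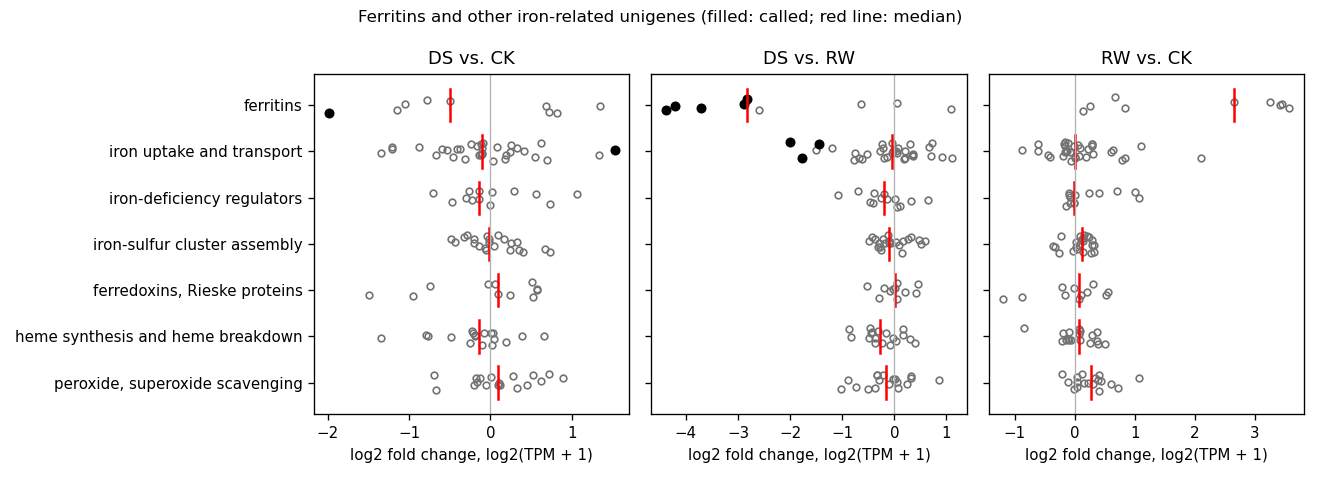
Log2 fold change on the log2(TPM + 1) scale (horizontal axis) of each ferritin and of each tested unigene of 6 iron-related lists in the 3 comparisons, with filled points for called unigenes, open points for the rest and a red line at each list's median. In RW vs. CK the ferritin median is 2.65 while the medians of the 6 lists lie between −0.02 and 0.27.

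The 5 described unigenes of at least 20 TPM on average whose profile over the 9 libraries was most like that of PFE2 were ABF4, SAUR32, RPT3, MCCA and ATG13B. Likeness was the root mean square difference of centred log2(TPM + 1), which ran from 0.45 for ABF4 to 0.51 for ATG13B among 6371 candidates. ABF4, a bZIP factor of abscisic acid signalling, averaged 36.5 TPM in CK, 9.42 in DS and 44.9 in RW. SAUR32, a small auxin-responsive protein, averaged 43.4, 8.23 and 41.7 TPM, and RPT3, a phototropism protein, 47.2, 8.75 and 45.7 TPM. MCCA, a subunit of a mitochondrial carboxylase of leucine breakdown, averaged 31.3, 9.07 and 38.4 TPM, and ATG13B, an autophagy protein, 27.8, 8.73 and 37.4 TPM. All 5 were lowest in the 3 DS libraries, as PFE2 was. They were picked for likeness to PFE2 over these same libraries, so the shared low follows from the choice and carries no test.

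Markers of other leaf tissues and of senescence were summed in the same libraries. The 36 xylem and secondary wall unigenes summed to 414 to 1316 TPM in CK, 56.6 to 247 TPM in DS and 131 to 551 TPM in RW, and the 25 phloem unigenes to 1856 to 7637, 849 to 3595 and 910.5 to 2416 TPM. The 23 senescence unigenes summed to 638 to 669 TPM in CK, 952 to 1367 in DS and 861 to 1060 in RW. Of the tested unigenes of these lists, 10 of 34 xylem and 0 of 19 phloem markers were called lower in DS vs. CK by limma, against 2.57% of all tested unigenes, and 3 of 23 senescence markers higher, against 2.39%. The phloem sums overlapped between all 3 groups. The part of these markers in the ferritin differences was not tested.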

How the data were processed

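Leaf mRNA was sequenced in 9 libraries. According to the study's methods, the authors trimmed reads with Cutadapt, assembled them de novo with Trinity and estimated abundance with Salmon. HISAT2 2.0 and StringTie 1.3.0 also appear in the submitters' processing notes, where their use is not described. The authors deposited TPM per unigene and library, with unigene length and annotation, and TPM keeps no sequencing depth.

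Unigenes reaching 1 TPM in 3 or more libraries (44538) were tested on log2(TPM + 1) with limma 3.58.1 (R 4.3.3; statmod 1.5.0), using the trend and robust options. All 9 libraries entered 1 model of group means (residual df 6), and p-values were adjusted over all tested unigenes by the Benjamini-Hochberg method. The added 1 shrinks fold changes of low unigenes. The study's own test needs counts and was not used here. With 3 libraries a group the smallest exact permutation p is 0.1, so p-values rest on limma's model. The steps were also run on simulated data with independent noise for each unigene. Shifts that several unigenes share in the same library were not simulated.

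The members and lists were chosen with earlier results of these data known. Named were all ferritins, up to 4 called unigenes per iron list with the smallest adjusted p, and the 5 unigenes most like the most abundant ferritin. Alternatives covered pseudocount, filter, the libraries fitted, replicate block, scaling, threshold and summed copies. Summing by SwissProt description was added after the data were seen.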

Additional observations from a re-analysis of the deposited data

How the results depend on the processing

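Scaling moved the median of all tested unigenes from −0.19 to −0.046 (median of ratios) or −0.040 (quantile) in DS vs. CK, and from −0.17 to −0.056 or −0.038 in DS vs. RW. The share of called unigenes that were higher went from 48.3% to 63.5% or 61.0% in DS vs. CK and from 54.5% to 67.0% or 64.2% in DS vs. RW. Ferritins called lower in DS vs. RW numbered 5, and 3 with TPM summed by Trinity component or by SwissProt description. The summed counts are out of fewer units, because members of 1 component or with 1 description merge, so they are not a drop from 5. Their number ran from 2 to 6 with 1 library left out. Ferritins called higher numbered 0 to 1 in DS vs. CK and in DS vs. RW with 1 library left out. With only the 6 libraries of the pair, 1 ferritin, FTH1, was called higher in DS vs. CK. By unadjusted p, 1 was higher in DS vs. CK, 1 in DS vs. RW and 5 in RW vs. CK. The sign of some uncalled differences changed. Summed by Trinity component, the DS vs. CK log2 fold change was −0.32 for the component of TRINITY_DN22294_c0_g2 and −0.80 for that of TRINITY_DN23595_c0_g2. With 1 library left out, DS vs. CK ran from −1.53 to 0.26 for TRINITY_DN22294_c0_g3 and from −0.12 to 1.40 for TRINITY_DN23595_c0_g2. DS vs. RW ran from −0.041 to 0.22 for FTL. RW vs. CK ran from −0.14 to 0.53 for TRINITY_DN10939_c1_g1 and from −0.39 to 0.65 for FTH1. Libraries with the same replicate number did not deviate together (r between −0.094 and 0.063 across unigenes), and not every library correlated best with its own number. These correlations cannot show whether equal numbers mark a shared pot or batch. With the replicate block, 2 ferritins were called lower in DS vs. RW, PFE2 and TRINITY_DN23595_c0_g1. Mean summed ferritin TPM, with 1 library left out, was 701 to 942 in CK and 213 to 385 in DS. In RW it was 2370 to 2919. The mean PFE2 share of the sum was then 65.9% to 83.0% in CK, 45.8% to 54.1% in DS and 32.4% to 43.6% in RW. Dropping 1 of 3 libraries cannot move a mean by a full SD, so these ranges are only a description. Under median-of-ratios scaling, the only other run of these measures, both moved by less than the SD between replicates.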

Other observations

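Among the iron lists, 2 further unigenes are named here after their values were seen, out of 14 of the 115 tested list unigenes (12.2%) whose RW libraries all lay above the CK range, a separation found for 5.35% of all tested unigenes. The unigene of vacuolar iron transporter homolog 4 (TRINITY_DN12143_c0_g1) was at 1.01, 0.860 and 0.860 TPM in CK, 6.34, 3.98 and 2.04 TPM in DS and 6.43, 10.1 and 5.66 TPM in RW. Both the DS and the RW libraries lay above the CK range, and the RW vs. CK log2 fold change was 2.10 (SE 0.38, limma adjusted p = 0.495). The unigene of bHLH121 (TRINITY_DN24081_c0_g1), an activator of the iron deficiency response in Arabidopsis, was at 5.41, 7.06 and 7.32 TPM in CK, 5.29, 6.86 and 7.59 TPM in DS and 13.8, 22.8 and 10.4 TPM in RW (1.08, limma adjusted p = 0.706). Neither passed the adjusted threshold.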
